A study of Homo sapiens with 6 samples.

Results

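The 10 genes described here, GABRP, ELF5, SOX10, KIAA1324, PROM1, LTF, SLPI, PIGR, LCN2 and CD14, are ones associated with secretory progenitor cells of the breast. They were picked by name from the 45019 rows of each deposited table. GABRP and KIAA1324 were already known to be among the largest falls in the comparison described below. Values from that comparison are therefore given for all 10 genes as a description, without a test.

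The RNA libraries came from MDA-MB-468, an established human line of triple-negative breast cancer with a basal-like profile. An untreated group was compared with a group kept for 10 days in 100 µM DETA/NO, which releases nitric oxide slowly into the medium. Cells were replated every 48 h and given 4 h to attach before DETA/NO was added again, and at each passage the dishes of a replicate were pooled, per the labels. Each group had 3 labelled samples, but DETA/NO replicates 1 and 2 held the same value in every row, so they count here as 1 library (DETA/NO library 1 and 2). Where 2 DETA/NO values are given, this library comes first and library 3 second. That left n = 3 untreated and n = 2 DETA/NO libraries, all of a single cell line and time point, and no vehicle or spent-donor control was among the samples analysed here. The labels do not say when the replicates were separated, so every p-value here reflects just how far these libraries lie apart, which may be technical. Between 28897422 and 34637343 reads per library could be recovered from the normalized values.

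In the breast, luminal progenitor cells give rise to the alveolar cells that make milk. ELF5, a transcription factor of the ETS family that acts downstream of prolactin, drives that fate, and alveolar cells release defence proteins such as lactoferrin into milk. Genes of this programme are also expressed in many basal-like breast tumours, where SOX10 and GABRP are well-known markers. MDA-MB-468 is thus a tumour model that may keep parts of the programme, not a culture of normal progenitor cells.

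Epithelial markers (EPCAM, CDH1, KRT8, KRT18 and KRT19) and basal-like markers (EGFR, KRT5, KRT14, KRT17, KRT6A and KRT16) were all present. The casein genes CSN1S1, CSN2 and CSN3 and the milk protein gene LALBA were listed at 0 in every library. LTF, the milk defence gene among the 10, had 1 to 4 reads per library. For these 10 genes, the label "secretory" thus rests in this line on SLPI, LCN2 and membrane proteins, not on the caseins, LALBA or LTF. Other secreted genes, described below, were also expressed.

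DETA/NO libraries had lower values than every untreated library in 7 of the 8 genes that passed a filter on low values (a mean of at least 10 normalized reads). Among all 16409 tested genes, 30.8% lay lower in this way, 30.4% lay higher and 61.2% did either. KIAA1324, GABRP and PIGR were about 4-fold lower, CD14 was 2.22-fold lower, SLPI and PROM1 were 1.61-fold and 1.56-fold lower, and LCN2 was 1.10-fold lower. ELF5 overlapped between the groups. LTF and SOX10 did not pass the filter. A log2 fold change of -1 or below was reached by 4 of the 8 genes and by 1.61% of tested genes. Because this contrast was used to choose the genes, nothing is read from these counts. The median log2 fold change was -0.92 over the 8 genes and -0.00016 over all tested genes. In bulk RNA, fewer expressing cells and less RNA per cell cannot be told apart.

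**Figure D1:**
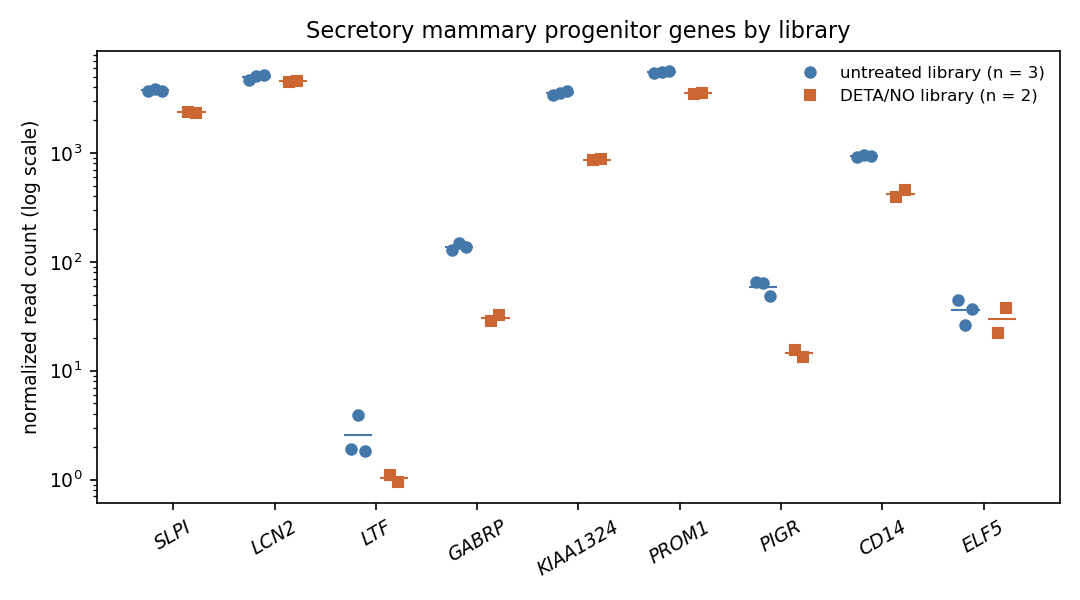
Normalized read counts (log axis) of the 9 genes with reads, in each untreated (circles, n = 3) and DETA/NO (squares, n = 2) library, with group means as short lines. The DETA/NO squares lie below the circles in every gene shown except ELF5, where they overlap; LTF rests on 1 to 4 reads.

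Promoter sequences of the 4 genes with falls over 2-fold and of LCN2, the least changed gene that did not overlap, are shown to let the sequence around their RefSeq starts be compared. RefSeq (GRCh38.p14) gave windows from 250 bases before to 50 bases after a start for 8 of the 10 genes, KIAA1324 under its current symbol ELAPOR1, and not for SLPI and SOX10. Where a gene had several windows, the one nearest the GENCODE 29 gene start was used. The RefSeq starts of PIGR and LTF are the GENCODE 29 gene starts, and the others lie inside the gene span, that of GABRP far inside. Capitals mark matches, on either strand, to any of 6 motifs of factor families named in mammary or defence gene control. These were AGGAAG for ETS factors, AACAAT for SOX factors, TTCNNNGAA for STAT factors, TTGCNNCAA for C/EBP factors, the TATAAA box and the consensus for NF-kB.
GABRP (chr5:170783475-170783774, plus strand): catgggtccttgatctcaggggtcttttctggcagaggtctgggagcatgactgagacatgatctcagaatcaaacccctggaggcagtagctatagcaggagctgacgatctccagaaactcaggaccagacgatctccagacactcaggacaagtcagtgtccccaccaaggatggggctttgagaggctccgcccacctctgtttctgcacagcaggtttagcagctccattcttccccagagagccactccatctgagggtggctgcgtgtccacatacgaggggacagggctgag
KIAA1324 (chr1:109113865-109114164, plus strand): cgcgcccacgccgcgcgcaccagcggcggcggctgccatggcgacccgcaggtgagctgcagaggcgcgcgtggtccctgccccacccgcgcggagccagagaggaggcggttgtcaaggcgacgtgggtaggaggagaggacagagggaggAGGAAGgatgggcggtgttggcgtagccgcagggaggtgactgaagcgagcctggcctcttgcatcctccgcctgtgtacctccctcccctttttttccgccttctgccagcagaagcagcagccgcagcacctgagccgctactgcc
PIGR (chr1:206946417-206946716, minus strand): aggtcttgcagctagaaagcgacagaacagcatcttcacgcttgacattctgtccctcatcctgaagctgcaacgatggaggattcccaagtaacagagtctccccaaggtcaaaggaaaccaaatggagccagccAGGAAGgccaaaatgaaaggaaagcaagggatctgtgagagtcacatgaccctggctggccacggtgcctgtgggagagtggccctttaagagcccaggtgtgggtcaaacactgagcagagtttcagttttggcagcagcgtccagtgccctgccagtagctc
CD14 (chr5:140633126-140633425, minus strand): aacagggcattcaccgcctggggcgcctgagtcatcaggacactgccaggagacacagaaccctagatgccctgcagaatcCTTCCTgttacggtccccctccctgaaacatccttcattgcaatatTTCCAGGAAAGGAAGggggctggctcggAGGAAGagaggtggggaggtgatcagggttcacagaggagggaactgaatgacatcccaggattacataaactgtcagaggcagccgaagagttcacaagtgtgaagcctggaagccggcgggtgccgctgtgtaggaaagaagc
LCN2 (chr9:128149203-128149502, plus strand): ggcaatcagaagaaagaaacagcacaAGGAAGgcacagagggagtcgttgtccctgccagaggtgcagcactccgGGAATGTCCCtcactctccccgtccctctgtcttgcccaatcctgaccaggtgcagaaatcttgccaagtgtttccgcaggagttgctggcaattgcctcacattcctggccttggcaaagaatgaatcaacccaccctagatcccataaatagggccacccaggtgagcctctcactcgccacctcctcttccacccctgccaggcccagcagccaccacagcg
The ETS letters were found in 6 of the 8 windows, against 33.6% of all 35116 RefSeq windows of that length. CD14 had 3 such matches, and GABRP and PROM1 had 0. The STAT letters, present in 7.66% of all windows, were in CD14 alone, from base -123 to -115 where the start is 0, and there they end just before an ETS match. The NF-kB consensus, present in 11.3% of all windows, was in LCN2 alone, from base -175 to -166. The SOX, C/EBP and TATA letters matched none of the 8 windows, against 10.1%, 1.98% and 11.5% of all. The windows differed in composition, with 69.3% G or C in KIAA1324 and 53.7% in PIGR (median of all windows 58.7%). A match is a stretch of letters, not a measured binding site.

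Among membrane proteins, GABRP encodes the pi subunit of the GABA-A receptor, a chloride channel subunit found in reproductive tissues, breast and basal-like tumours. It lies on chromosome 5 at 170763350 to 170814047 (GRCh38, plus strand). Untreated libraries 1 to 3 gave 128, 149 and 137 normalized reads for GABRP, and the DETA/NO libraries gave 28.8 and 32.3. The groups were far apart, with DETA/NO values at 20.9% and 23.4% of the untreated mean. The group means were 138.0 ± 10.6 (SD, n = 3) and 30.5 ± 2.46 (SD, n = 2), a 4.52-fold difference, and the log2 fold change was -2.14 ± 0.164 (SE). All fold changes given as log2 are on the log2(value + 1) scale, which understates the change of low genes. The 2 groups rest on 434 and 60 recovered reads, and the ratio of reads after scaling was 0.223 with an exact 95% interval of 0.167 to 0.292 for counting error only. Of GABRP's exonic bases in GENCODE 29, 29.4% lie within the span of another gene (the antisense AC008514.1), and how reads there were assigned was not given in the sources used here.

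KIAA1324, also named ELAPOR1 or EIG121, encodes a transmembrane protein of endosomes and lysosomes that was first described as an oestrogen-induced gene. It lies on chromosome 1 at 109113679 to 109206781. Its untreated values were 3415, 3580 and 3669 normalized reads, and its DETA/NO values 865 and 875. The DETA/NO libraries differed from each other by 1.05% and held 24.3% and 24.6% of the untreated mean. The log2 fold change was -2.03 ± 0.0427 (SE), and with 11192 and 1702 recovered reads in the 2 groups it is the best counted of the 4 large falls. Among the 16409 tested genes GABRP, KIAA1324 and PIGR held ranks 14, 18 and 21 by size of fall. GABRP and KIAA1324 were already known to be among the largest falls, so nothing is read from these ranks. The order of GABRP and KIAA1324 is not settled either. GABRP's counting interval of 0.167 to 0.292 takes in the KIAA1324 read ratio of 0.245.

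PIGR encodes the polymeric immunoglobulin receptor, which carries dimeric IgA and IgM across secretory epithelium. It lies on chromosome 1 at 206928518 to 206946466 (minus strand). Untreated cells gave 65.0, 63.8 and 48.1 normalized reads for PIGR, and cells with DETA/NO gave 15.5 and 13.3. The groups did not overlap, and the 2 DETA/NO values were 26.3% and 22.6% of the untreated mean. Its log2 fold change was -1.95 ± 0.24 (SE). PIGR rests on only 185 and 28 recovered reads, with a read ratio of 0.244 and a counting interval of 0.158 to 0.364, so its fall cannot be ranked against those of GABRP and KIAA1324.

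CD14, on chromosome 5 at 140631728 to 140633701, encodes the lipid-anchored coreceptor that hands bacterial lipopolysaccharide to TLR4. Its values were 909, 963 and 945 normalized reads without DETA/NO and 390 and 456 with it. Both DETA/NO values were under 50% of the untreated mean (41.5% and 48.5%), and they differed by 15.5% of their own mean. They spread more than the untreated values, with group means of 423 ± 46.5 (SD, n = 2) and 939 ± 27.7 (SD, n = 3). The log2 fold change was -1.15 ± 0.0680 (SE), and it was -1.26 without DETA/NO library 3 and -1.04 without library 1 and 2.

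PROM1, on chromosome 4 at 15963076 to 16084378, encodes prominin 1 (CD133), a glycoprotein of membrane protrusions used as a marker of progenitor cells in many tissues. PROM1 values were 5420, 5511 and 5624 normalized reads without DETA/NO and 3489 and 3570 with it. The DETA/NO libraries kept 63.2% and 64.7% of the untreated mean. The log2 fold change was -0.64 ± 0.0338 (SE). PROM1 stayed an abundant transcript after treatment, and 18.1% of its exonic bases lie within other genes' spans.

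Of the secreted proteins, SLPI encodes a protease inhibitor with antimicrobial activity found in milk, saliva and airway fluid. It lies on chromosome 20 at 45252239 to 45254564. Untreated SLPI values were 3728, 3896 and 3728 normalized reads, and those with DETA/NO 2367 and 2344. The 2 DETA/NO libraries differed by 0.987% and held 62.5% and 61.9% of the untreated mean, a log2 fold change of -0.68 ± 0.0370 (SE). SLPI and PROM1, a secreted and a membrane protein, thus had falls of like size.

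LCN2, on chromosome 9 at 128149071 to 128153455, encodes lipocalin 2, which binds the siderophores that bacteria use to take up iron. Untreated LCN2 values were 4672, 5110 and 5241 normalized reads, and those with DETA/NO 4515 and 4602. The highest DETA/NO value lay just under the lowest untreated one. The DETA/NO libraries held 90.2% and 91.9% of the untreated mean, and the untreated coefficient of variation was 5.96%, so the difference is of the order of the spread. Its log2 fold change was -0.13 ± 0.0395 (SE).

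LTF, on chromosome 3 at 46435645 to 46485234, encodes lactoferrin, the iron-binding defence protein of milk. Only 2, 4 and 2 recovered reads fell on LTF in untreated cells, and 1 in each DETA/NO library. The scaled ratio was 0.402 with a counting interval of 0.0416 to 2.02, so a change in either direction was not detectable at this depth.

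**Figure D2:**
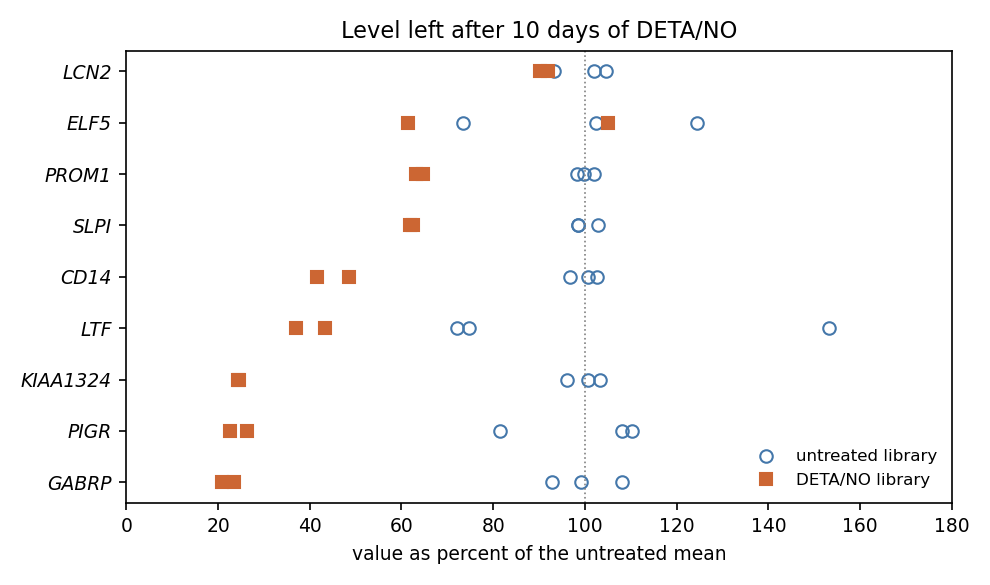
Each library's value as a percent of the untreated mean (dotted line at 100) for the 9 genes with reads, open circles for untreated and filled squares for DETA/NO libraries. GABRP, PIGR and KIAA1324 sit at 20.9% to 26.3%, CD14 at 41.5% to 48.5%, SLPI and PROM1 at 61.9% to 64.7% and LCN2 at 90.2% and 91.9%; the ELF5 squares straddle the line.

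Of the 2 transcription factors, ELF5 showed no detectable difference and SOX10 could not be assessed. ELF5, on chromosome 11 at 34478793 to 34513805, gave 44.9, 26.5 and 37.0 normalized reads in untreated cells and 22.2 and 38.0 with DETA/NO. The groups overlapped, with library 3 above the untreated mean and library 1 and 2 below every untreated library. The log2 fold change was -0.27 ± 0.267 (SE), and it was 0.10 without DETA/NO library 1 and 2 and -0.65 without library 3. The read ratio of 0.847 had a counting interval of 0.609 to 1.17, which takes in no change.

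SOX10, a factor of the neural crest that also marks basal-like breast tumours, lies on chromosome 22 at 37970686 to 37987422 and was listed at 0 in all libraries. Its whole span lies inside that of POLR2F on the opposite strand. Of 1544 protein-coding genes whose span lies wholly inside another gene's, 97.9% were listed at 0, against 14.2% of 7062 genes whose span no other gene touches. The 0 of SOX10 therefore does not speak to its expression. Among 9 Schwann cell and melanocyte markers, 7 had means under 10, including MLANA (span wholly inside another gene) and TYR at 0. Their summed level was 46.8 to 54.5 normalized reads in untreated and 52.2 to 68.7 in DETA/NO libraries.

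Levels between genes were compared per kb of exon, using GENCODE 29 lengths, since the sources used here do not give the annotation behind the counts. In untreated cells SLPI led with 6349 ± 162 normalized reads per kb (SD, n = 3), followed by LCN2 with 3134 ± 187, PROM1 with 742 ± 13.7, CD14 with 498 ± 14.7 and KIAA1324 with 382 ± 13.9. GABRP (29.9 ± 2.29), PIGR (13.5 ± 2.16), ELF5 (8.04 ± 2.06) and LTF (0.603 ± 0.278) followed at far lower levels. No neighbours in this order overlapped between libraries. In DETA/NO libraries the upper 5 genes kept their order. GABRP (6.23 and 6.99 per kb) came to lie within the spread of ELF5 (4.93 and 8.45), and PIGR (3.54 and 3.04) below both. These lengths count all exonic bases, of which 29.4% in GABRP and 18.1% in PROM1 lie in other genes' spans, and none in ELF5. If reads there went uncounted, the levels of GABRP and PROM1 are understated. FOLR1, DEFB1 and RBP4 share no exonic base with another gene, yet were listed at 0 with their spans wholly inside one. Reads may therefore have been counted over whole spans, introns included, and exon length would then be the wrong divisor. This was not tested. Which of GABRP and ELF5 lay higher with DETA/NO is therefore not settled. The falls thus took genes from very different starting levels, and the highest pair per kb of exon, SLPI and LCN2, stayed the highest.

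**Figure D3:**
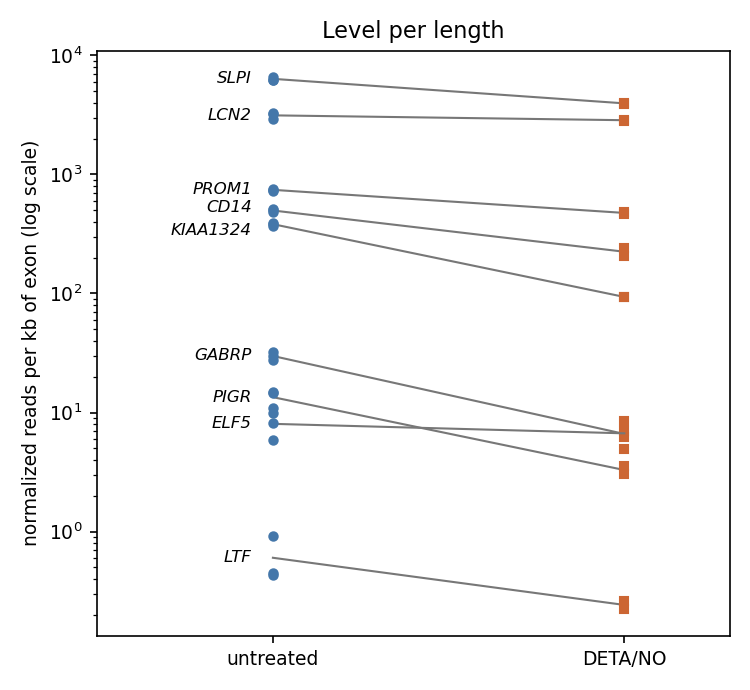
Normalized reads per kb of exon (log axis) in untreated (circles, n = 3) and DETA/NO (squares, n = 2) libraries, with lines joining group means. SLPI and LCN2 stay at the top, and the lines of GABRP and ELF5 meet at 6.61 and 6.69 per kb. Lengths include the 29.4% of GABRP's exonic bases that lie in another gene's span.

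Over the 5 libraries, the genes nearest to GABRP among those with a mean of at least 100 were KIAA1324, CYP4Z1 and CP. Nearness was the Euclidean distance between log2 values less the untreated mean (0.22, 0.31 and 0.32). Nearest to KIAA1324 were CYP4Z1, C8orf31 and POU2AF1 (0.12, 0.17 and 0.18). CYP4Z1, a cytochrome P450 found in breast tissue, had a mean of 1014 ± 26.5 normalized reads (SD, n = 3) in untreated cells and 262 ± 5.45 (SD, n = 2) with DETA/NO, and 56.0% of its exonic bases lie in other genes' spans. POU2AF1, a coactivator of POU2 factors, went from 726 ± 20.7 to 187 ± 8.08. With 3 against 2 libraries such profiles are almost wholly set by the size of the difference between groups.

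Companion lists of genes around the 10 were counted in a limma fit over all genes (the 10 genes are on none of these lists), at a Benjamini-Hochberg adjusted p under 0.05. Of all tested genes, 21.7% were called lower and 21.7% higher in that fit (43.4% in all), and each list's counts stand beside these shares. The lists were chosen with earlier results of these data known, so their counts and p-values are not independent support. Of 16 tested luminal progenitor genes, 10 fell and 3 rose, with a median log2 fold change of -0.23. The lists overlap: EHF and ELF3 are counted again among the relatives and partners below, as is PI3 of the secreted defence genes. With each gene counted once, 37 of 104 tested list genes fell and 25 rose. KIT, the stem cell factor receptor that marks luminal progenitors, gave 333, 365 and 333 normalized reads without DETA/NO and 101 and 70.3 with it (log2 fold change -2.01 ± 0.125 (SE), adjusted p = 1.9e-13). The size of so small an adjusted p rests on the options of the fit. For KIT it was 0.00536 in limma without the trend and robust options and 3.64e-65 with no filter. SLC34A2, a phosphate transporter of the alveolar surface, had means of 960 ± 81.3 and 475 ± 2.51 (a log2 difference of -1.01, adjusted p = 9.3e-14). CD24, a small surface glycoprotein, fell by 0.67 (adjusted p = 3.42e-15) and RARRES1, a retinoid-responsive gene, by 0.46 (adjusted p = 3.77e-15) on the log2 scale. ITGA2, the integrin alpha 2 chain, rose by 1.10 (adjusted p = 7.22e-20, and 0.00335 in limma without the trend and robust options) and TFCP2L1 by 0.25 (adjusted p = 2.2e-06). ALDH1A3, the aldehyde dehydrogenase behind much of the activity used to sort progenitors, rose by 0.19 (adjusted p = 0.0172). That call was lost without untreated library 1 (adjusted p = 0.0650) or 2 (0.0523) and without DETA/NO library 3 (0.624), and 91.6% of ALDH1A3's exonic bases lie in other genes' spans.

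Of 17 tested genes known from basal-like tumours, 8 fell and 2 rose (median log2 fold change -0.23), against 21.7% each way over all tested genes. VTCN1, an immune checkpoint ligand of the B7 family, dropped from 17050 ± 300 normalized reads to 10817 ± 330 (log2 fold change -0.66 ± 0.0296 (SE), adjusted p = 5.13e-18). On the log2 scale VGLL1, a cofactor of TEAD factors, stood at -0.37 (adjusted p = 5.13e-11), the small heat shock protein CRYAB at -0.39 (adjusted p = 1.47e-07) and the Wnt antagonist SFRP1 at -0.23 (adjusted p = 4.39e-07). PPP1R14C, a phosphatase inhibitor, rose by 0.35 (adjusted p = 6.85e-07) and the keratin KRT6B by 0.57 (adjusted p = 0.0320). KRT6B lost its call without untreated library 2 (adjusted p = 0.104), without DETA/NO library 1 and 2 (0.154) or without DETA/NO library 3 (0.156). The list then had 1 rise in the first 2 cases. FOXC1, which marks basal-like tumours together with SOX10, had 2862 ± 98.8 and 2904 ± 40.9 and was named after its values were seen. Of the 6 basal-like markers used to check the line, 4 rose and 0 fell, with a summed level of 274682 to 276999 in untreated and 312279 to 314050 in DETA/NO libraries. Most of that sum was EGFR, with a mean of 222201 in untreated cells. Of the 5 epithelial markers 0 rose and 1, KRT19, fell (log2 fold change -0.18, adjusted p = 0.00627). The part of these markers in the falls above was not tested.

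Of 13 tested milk and prolactin pathway genes, 4 rose and 1 fell, with a median log2 fold change of 0.09. With 21.7% of all tested genes called higher, the count of rises is near the background. XDH, xanthine dehydrogenase, a component of the milk fat globule coat, gave 870, 825 and 862 normalized reads without DETA/NO and 2088 and 2284 with it. Its log2 fold change was 1.36 ± 0.0518 (SE; adjusted p = 6.93e-20). SOCS2, a feedback inhibitor induced by STAT5, had means of 65.5 ± 8.28 and 179 ± 29.6 (a log2 difference of 1.43, adjusted p = 4.71e-09), and PLIN2, a lipid droplet coat protein, rose by 0.38 (adjusted p = 2.33e-07). The prolactin receptor PRLR stood at -0.15 on that scale (adjusted p = 0.00198), a call lost in limma without the trend and robust options (adjusted p = 0.0673). The list had 2 falls without untreated library 3 or DETA/NO library 3. STAT5B, a factor that carries the prolactin signal, stood at 0.12 (adjusted p = 0.0283). It lost the call without untreated library 2 (adjusted p = 0.0883) or 3 (0.0628) and without DETA/NO library 1 and 2 (0.117) or 3 (0.0819). CSN1S1, CSN2, CSN3 and LALBA have no exonic base in another gene's span.

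Secreted defence genes, the family nearest in function to SLPI, LCN2 and LTF, were lower for 10 of the 14 tested and higher for 3 (median log2 fold change -0.59). Over all tested genes 21.7% were called lower and 21.7% higher, so the rises are near that share. Of the 30 genes listed, 16 were under the filter, 10 of them at 0 in every library. Among these, DEFB1, RNASE7, SCGB1D2 and JCHAIN have spans wholly inside another gene's. SAA2, CFB and BPI have 99.64%, 99.28% and 70.65% of their exonic bases in other spans. A 0 of these genes need not mean that they were silent. With a filter at a mean of 50 the falls were 7. BPIFB1, counted among the 10, lost its call in edgeR (adjusted p = 0.0942) and in other alternatives. S100A8 and S100A9, the subunits of calprotectin, fell by 0.72 (adjusted p = 9.52e-17) and 0.59 (adjusted p = 7.28e-17) on the log2 scale. S100A8 values were 4636, 4631 and 4798 normalized reads without DETA/NO and 2752 and 2943 with it, with no overlap. AZGP1, a zinc-binding glycoprotein of many secretions, had means of 21464 ± 601 and 14562 ± 237 (a log2 difference of -0.56, adjusted p = 1.91e-16). Complement C3 fell by 0.60 (adjusted p = 4.59e-14). Genes that rose were, with their log2 fold changes, TCN1, a vitamin B12 carrier of secretory granules (1.36, adjusted p = 1.74e-06), CHI3L1 (0.60, adjusted p = 0.000165) and the acute phase gene SAA1 (0.26, adjusted p = 0.00336). PI3, or elafin, the nearest relative of SLPI on the lists, went from 988 ± 28.8 to 656 ± 15.8 (log2 fold change -0.59 ± 0.0581 (SE), adjusted p = 6e-10).

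**Figure D4:**
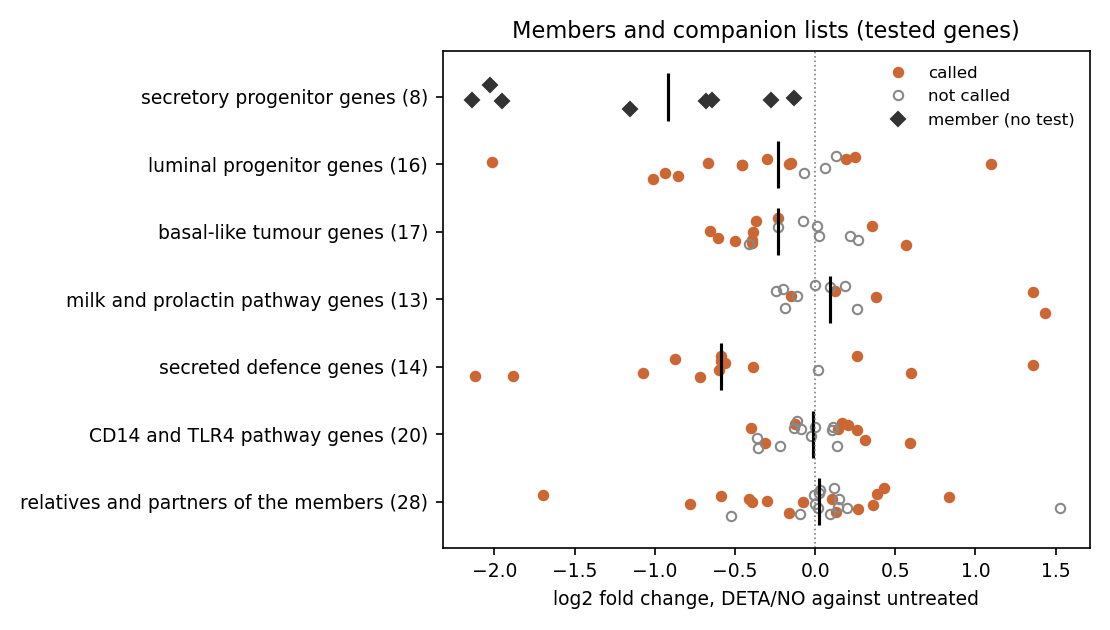
Log2 fold changes (DETA/NO against untreated) of tested genes in each list, number tested in brackets, with filled circles for called genes, open circles for others, diamonds for the 10-gene set's 8 tested genes (no test) and vertical bars at list medians. Secreted defence genes have a median of -0.59, and milk and prolactin pathway genes one of 0.09.

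Of 20 tested genes of the TLR4 pathway around CD14, 6 rose and 3 fell (median log2 fold change -0.01), both near the 21.7% called each way over all tested genes. TLR4 itself was listed at 0 with its span wholly inside another gene, and its partner LY96 had 0.981 to 6.65 normalized reads per library. On the log2 scale TLR1, a partner of TLR2, stood at -0.40 (adjusted p = 1.17e-08), the kinase IRAK4 at -0.31 (adjusted p = 3.33e-05) and the ubiquitin ligase TRAF6 at -0.12 (adjusted p = 0.00972). TRAF6 lost its call without untreated library 2 (adjusted p = 0.0703) or DETA/NO library 1 and 2 (0.0655), and 5 genes of the list fell without untreated library 3. TICAM1, the adaptor of TLR3 and TLR4, rose by 0.59 (adjusted p = 1.57e-05), IRAK1 by 0.31 (adjusted p = 4.43e-10), TRAF3 by 0.26 (adjusted p = 0.000863) and TAB2 by 0.20 (adjusted p = 9.66e-06). NFKBIZ, a coactivator known to drive LCN2 transcription, had 6687 ± 620 and 6670 ± 139 and was named after its values were seen. CD14, LCN2 and LTF are also genes of monocytes and neutrophils. Of 11 markers of such cells, 7 had means under 10, including TYROBP, FCGR3A and CD68 at 0 in every library, the last 2 with spans wholly inside another gene. PTPRC and CSF1R were called higher. The summed level, mostly CSF1R, was 2620 to 2713 normalized reads in untreated and 2985 to 3009 in DETA/NO libraries.

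Of 28 tested relatives and partners of the 10 genes, 8 fell and 7 rose (5 and 4 without DETA/NO library 1 and 2), both near the 21.7% called each way over all tested genes. In the ETS family, EHF and SPDEF, epithelial relatives of ELF5, had log2 fold changes of -0.30 (adjusted p = 3.33e-08) and -0.78 (adjusted p = 9.4e-07). SPDEF values were 2135, 2142 and 2377 normalized reads without DETA/NO and 1193 and 1397 with it. ELF3 had one of -0.16 (adjusted p = 0.0390), which was lost without DETA/NO library 1 and 2 (adjusted p = 0.188), in edgeR (0.0623) and in DESeq2 (0.128), and 66.1% of its exonic bases lie in other spans. ELF4 rose by 0.36 (adjusted p = 2.7e-08), ELF1 by 0.13 (adjusted p = 0.00615; 0.106 without DETA/NO library 1 and 2), and ELF2 was at -0.01 (adjusted p = 0.868).

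PROM2, the paralogue of PROM1, gave 6592, 6773 and 7079 normalized reads without DETA/NO and 5047 and 5202 with it (log2 fold change -0.41 ± 0.0341 (SE), adjusted p = 1.3e-11). KIAA1324L, the paralogue of KIAA1324, stayed under the filter with 2 to 10 recovered reads per library. Of the relatives of LTF, the iron carrier TF stood at -1.70 on the log2 scale (adjusted p = 7.18e-18; 54.9% of exonic bases in other spans) and the membrane-bound MELTF rose by 0.43 (adjusted p = 0.00137). The SoxE genes SOX8 and SOX9 were listed at 0, SOX9 with its span wholly inside another gene. Among other GABA-A receptor subunits, GABRB1 rose by 0.27 (adjusted p = 0.00915) and GABRR2 fell by 0.39 (adjusted p = 0.0101), calls lost without DETA/NO library 1 and 2 (adjusted p = 0.0911 and 0.337). GABRA3, GABRB2, GABRG3 and GABRE were not called, with log2 fold changes from -0.09 to 0.09. WFDC3, of the whey acidic protein domain family of SLPI, rose by 0.83 (adjusted p = 0.00251) from a low level of 36.2 ± 10.0, a call lost in limma without the trend and robust options (adjusted p = 0.0563). PLSCR1, a phospholipid scramblase that binds SLPI, rose by 0.38 (adjusted p = 1.91e-07).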

How the data were processed

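The authors deposited 1 normalized read count (a signal per gene) for each of 45019 rows in each of 6 files. Per the submitters' processing notes, the build was GRCh38 and the tools were DESeq2 1.38.3 and R 4.2.2, Subread with featureCounts 2.0.3, Bowtie2 2.5.0.0 and TopHat2 2.1.1, then MultiQC 1.14, FastQC 0.11.9 and deepTools 3.5.1. Which annotation was counted, and how, is not given in the sources used here. All values above 0 (100%) were whole multiples of 1 factor per library, at a tolerance of 0.01 reads.

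Groups and replicate numbers came from sample titles. The main test was limma 3.58.1 (R 4.3.3; trend and robust options) on log2(value + 1), over the 16409 genes whose mean reached 10, called at a Benjamini-Hochberg adjusted p under 0.05. Alternatives were TMM and quantile scaling, pseudocounts of 0.5 and 5, no filter or a mean of 50, plain limma, edgeR 4.0.16 and DESeq2 1.42.0 on recovered reads, leaving out each library, and a replicate block. Tested on simulated data of the same comparison (16409 genes, with 50 altered per size), limma found 84% of 1.5-fold, 90% of 2-fold, 96% of 4-fold and 98% of 8-fold changes, with 5 false among 189 calls. The simulation drew independent counts and altered far fewer genes than the 43.4% called in the real fit. Its rates therefore need not hold for the real comparison. The genes described and the companion lists were chosen with earlier results of these data known. Named genes were all 10 genes, up to 4 called genes per list and direction by adjusted p, the tested relatives and the 3 nearest profiles. Positions and overlaps are from GENCODE 29 (GRCh38). Python 3.11.15, pandas 2.3.3 and scipy 1.17.1 did the rest.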

Additional observations from a re-analysis of the deposited data

How the results depend on the processing

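Across 16 alternatives, 218 of 231 recomputed counts stayed within 1.5 times the main value. A count that stays does not mean that each gene kept its call. In DESeq2 the list genes ELF3, TNFRSF11A, ROPN1B, STAT5B, BPIFB1, MYD88, GABRR2, GRN and ANXA2 were no longer called. ELF3 and TNFRSF11A are counted among the luminal progenitor falls and ROPN1B among the basal-like falls. ELF3, TNFRSF11A and ROPN1B also lost their calls in limma without the trend and robust options (adjusted p = 0.182, 0.0680 and 0.106). Limma without the trend and robust options called 2262 genes higher in all, and 3 higher and 5 lower among relatives and partners, and 0 milk and prolactin pathway genes lower. DESeq2 called 5 relatives and partners lower. Leaving out 1 library gave 1 to 2 basal-like tumour genes higher, 1 to 2 milk and prolactin pathway genes lower, 2 to 5 CD14 and TLR4 pathway genes lower, and 4 to 8 higher and 5 to 8 lower relatives and partners. With a replicate block and the shared DETA/NO library as number 1, 2 milk and prolactin pathway genes were lower; all genes called were 3320 higher and 3285 lower, and 3143 and 3178 with it as number 2. Deviations of same-numbered libraries correlated at 0.0293, 0.00106 and 0.0301, and only 2 pairs can be formed, so the numbers were not taken to pair samples. These are deviations from group means, so the third value is not independent of the first 2. Log2 fold changes ranged from -2.22 to -2.01 for GABRP, -2.06 to -2.01 for KIAA1324, -2.09 to -1.71 for PIGR, -1.26 to -1.04 for CD14, -0.67 to -0.63 for PROM1, -0.70 to -0.66 for SLPI, -0.18 to -0.10 for LCN2 and -0.65 to 0.10 for ELF5. The filter at a mean of 50 left out PIGR and ELF5. Few reads limit LTF, PIGR, ELF5 and GABRP, and ELF5 also differs between its DETA/NO libraries.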

Other observations

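Some called genes of the lists lay far below the untreated level although others of their list had smaller adjusted p. ZG16B, a secreted lectin, had 59.3 ± 6.54 (SD, n = 3) and 15.3 ± 1.23 (SD, n = 2) normalized reads, and PIP, the prolactin-induced protein of apocrine secretions, had 25.8 ± 2.39 and 5.14 ± 0.56. MUC5B, a gel-forming mucin, gave 431, 467 and 524 without DETA/NO and 260 and 255 with it, with 39.9% of its exonic bases in other genes' spans. BCL11A, a transcription factor of progenitor cells, gave 410, 376 and 347 without DETA/NO and 205 and 188 with it. These 4 genes were chosen after their values were seen.

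Of 163 genes on the companion lists, 31 were listed at 0 in every library. In 14 of them the span lies wholly inside another gene's, among them KRT23, FOLR1, TLR4, TLR6, SOX9 and MIA, and 12 have no exonic base in another span, among them the caseins.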
